A study of Mus musculus with 12 samples.

Results

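The genes described here are those with a low array signal in unstimulated Th9 cells and a clear signal in both Th2 and Treg cells. They were chosen on the deposited log2 values, with values under 4 set to 4 and the probe with the highest mean standing for a gene. A gene qualified when its mean over the Th2 arrays and its mean over the Treg arrays were both at least 6 and both at least 1 above its mean over the 3 unstimulated Th9 arrays. This gave 99 of 27744 genes, against 11694 genes at 6 or above in both Th2 and Treg cells. Current symbols were found for 77 of the 99, and the other genes keep the name of the array design.

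The cells came from C57BL/6 mice: naive CD4+ T cells of spleens and lymph nodes were activated with antibodies to CD3 and CD28. Stimulated Th9 cells were grown with IL-4 at 20 ng/ml, TGF-β at 2 ng/ml and an antibody to IFN-γ for 5 days and then met anti-CD3 (1 µg/ml) for another 6 h. Unstimulated Th9 cells had the same culture without the second exposure. Th2 cells had IL-4 at 20 ng/ml and anti-IFN-γ without TGF-β, and Treg cells had TGF-β at 2 ng/ml, anti-IL-4 and, from day 3, IL-2. Cultures of every group ran for 5 days and were expanded on day 3. These are cultured populations, not sorted cells, and each group had 3 arrays. The labels do not say whether the arrays of a group came from separate cultures or mice, so p-values reflect the scatter of these samples alone, and that scatter may be technical.

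Th9 cells are helper T cells defined by the cytokine IL-9, Th2 cells make IL-4, IL-5 and IL-13, and Treg cells restrain other lymphocytes under the control of Foxp3. Binding of the T cell receptor by anti-CD3 starts calcium, NFAT and NF-κB signalling and switches on cytokine and chemokine genes within hours. The same signal switches off part of the programme of quiescent T cells. Interferons act through the STAT and IRF transcription factors, which bind the interferon-stimulated response element (ISRE) in the promoters of antiviral genes.

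Il9 averaged 14.74 ± 0.63 in stimulated Th9 cells and 7.52 ± 0.66 in unstimulated Th9 cells (level, SD, n = 3), and none of the Th2 or Treg arrays had it well above background. Foxp3 averaged 7.58 ± 0.14 in stimulated and 7.23 ± 0.09 in unstimulated Th9 cells, was not detected in this sense in Th2 cells and averaged 9.79 ± 0.19 in Treg cells. A level is the log2 signal after each array was scaled to its 75th percentile. Over genes, arrays of a group correlated at 0.988 to 0.9954, and 59.85 to 63.69% of probes per array passed the scanner software's test for a signal well above background. The 12 arrays lay on 3 slides. The 3 unstimulated Th9 arrays shared slide 3 with the stimulated array 3, stimulated arrays 1 and 2 shared slide 2 with Treg arrays 2 and 3, and Treg array 1 shared slide 1 with the Th2 arrays. A value within slide 3 is therefore stimulated array 3 minus the mean of the unstimulated Th9 arrays. Fewer cells that express a gene and less RNA per cell cannot be told apart in these bulk samples.

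A functional group was given to 63 of the 99 genes by hand once their names were known, and 11 of those 63 are genes of the interferon response. Of the 99, 57 had a promoter in the RefSeq table, and the 250 bases upstream of the start were searched on both strands for 6 motifs. The ISRE core, GAAA and GAAA with 2 bases of any kind between them, was in 4 of the 57 (7.02%), against 936 of 27025 genes (3.46%). The stretches with a match are shown because they carry the one motif that stands in a larger share of the listed promoters than of all promoters, with the match in capitals, read 5′ to 3′ on the strand of the gene (RefSeq, GRCm38.p6).
Oas3 (chr5:120777705-120777754, minus strand): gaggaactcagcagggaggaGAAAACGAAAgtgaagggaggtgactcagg
Serpinb9 (chr13:33004475-33004524, plus strand): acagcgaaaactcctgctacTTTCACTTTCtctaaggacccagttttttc
Serpinb6a (chr13:34002849-34002898, minus strand): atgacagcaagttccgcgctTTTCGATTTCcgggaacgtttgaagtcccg
Phf11a (chr14:59297523-59297571, minus strand): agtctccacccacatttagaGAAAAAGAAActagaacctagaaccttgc

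Oas3 and Phf11a hold the motif on the strand of the gene, Serpinb9 and Serpinb6a on the opposite strand. Serpinb9 and Serpinb6a are grouped below with the protease inhibitors, not with the interferon response, and the difference in share was not tested. The other motifs were no more frequent in the listed promoters than in all promoters. The GAS motif TTCNNNGAA was in 3.51% against 8.13%, the NF-κB motif, GGGA and TTTCC with 1 base between them, in 0 of 57 against 0.414%, and the AP-1 motif TGANTCA in 7.02% against 7.82%. The NFAT core TGGAAA was in 15.8% against 20.9% and the forkhead motif TGTTTAC in 1.75% against 3.54%. A match is a match of letters and does not show a site in use.

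The choice itself fixed the direction of the differences between unstimulated Th9 cells and the other cultures, so these are given as a description. On the deposited log2 scale, Th9 minus Th2 ran from -3.555 to -1.001 with a median of -1.337, and Th9 minus Treg from -8.005 to -1.027 with a median of -2.103. The larger difference was that to Treg cells in 74 genes and that to Th2 cells in 25. Just inside the threshold of 1 were AK040074 with a smaller difference of 1.001, St14 with 1.004 and Fgd2 with 1.012, and just outside it Kat2a with 0.997, Stard8 with 0.989 and Cd69 with 0.985. Of the genes near the level threshold of 6, Tyrobp (6.007 in Treg cells) and Mx1 (6.021 in Th2 cells) were inside, and Ms4a4d (5.98 in Th2 cells), Egr3 (5.94) and Rsad2 (5.94) were outside. No unstimulated Th9 array shared a slide with a Th2 or Treg array, so differences of culture and of slide are mixed here. A fit with slide as a term links these cultures only through the stimulated Th9 arrays, and for Th2 cells also through Treg array 1. In that fit, 94 of the 99 were lower in Th9 cells than in both other cultures, 63 of them by at least 1. The 5 that were not were AK136384, Serpinb9, Slc9b2, Csf2 and Ccl4. The arrays hold 41 further probes for 29 of the genes. Of these, 14 were at 6 or above in Th2 and Treg cells, all 14 were lower in Th9 cells than in both, and 9 met the rule. For Lrrk1 the distance to Treg cells was small, with 6.941 against 7.036 on one probe and 6.061 against 6.102 on another. Some probes under that level were not lower in Th9 cells, such as those of Dnah8 and Prag1 at 4 in every culture. The further probes were read on the arrays that the rule used, so they are no independent support.

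**Figure D1:**
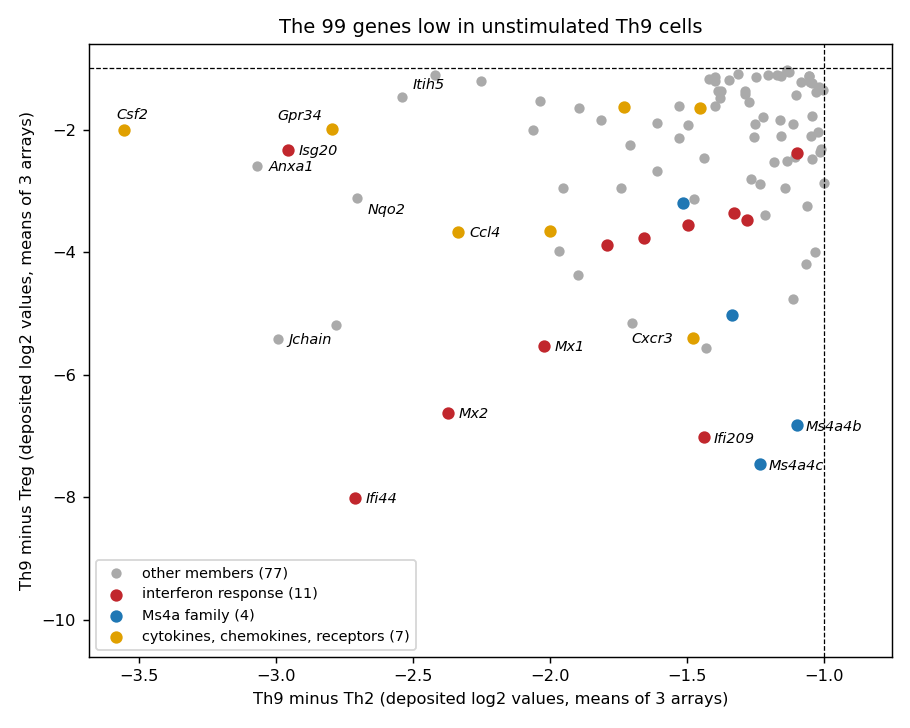
Difference between unstimulated Th9 and Th2 cells (horizontal axis) and between unstimulated Th9 and Treg cells (vertical axis) on the deposited log2 scale, 1 point per gene, coloured by 3 functional groups. Dashed lines mark the threshold of -1, and the points reach further down than left, with Ifi44 at -8.005 against Treg cells and Csf2 at -3.555 against Th2 cells.

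After restimulation through the T cell receptor some of these genes rose and others fell. Of the 99, 43 were higher after anti-CD3 (43.4%; 33.2% of all 17928 genes tested) and 30 were lower (30.3%; 30.7% of all genes tested), in limma with adjusted p under 0.05. Among all genes at 6 or above in Th2 and Treg cells, 38.2% were higher and 33.8% lower. The median difference over the 99 was 0.39 log2 units, beside 0.02 over all genes tested, and 0.19 within slide 3. The stimulated arrays had no part in the choice, but the unstimulated Th9 arrays had, and were chosen as low. That choice alone favours a rise over those arrays, so the share of rises and the median are not independent of it. Calls and p-values of single genes that rose after anti-CD3, given below, share this limit. The change was at least 2-fold in 34 of the 43 and in 17 of the 30. Within slide 3, 42 of the 43 and all 30 kept their direction, and Cxcr3 was the one that did not.

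The stimulated mean reached the lower of the Th2 and Treg means in 25 genes, lay between that and the unstimulated Th9 mean in 30, and was at or below the unstimulated Th9 mean in 44. For 59 of the 99, every stimulated array was below every Th2 and Treg array, so the low signal was not limited to resting Th9 cells for these genes. For 12 called genes, every stimulated array was above every Th2 and Treg array. They were Ccl4, Csf2, Alpl, Bcl2a1b, Bcl2a1c, AK037005, Afp, Slc9b2, Btla, Zfp783, Arc and Chml.

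**Figure D2:**
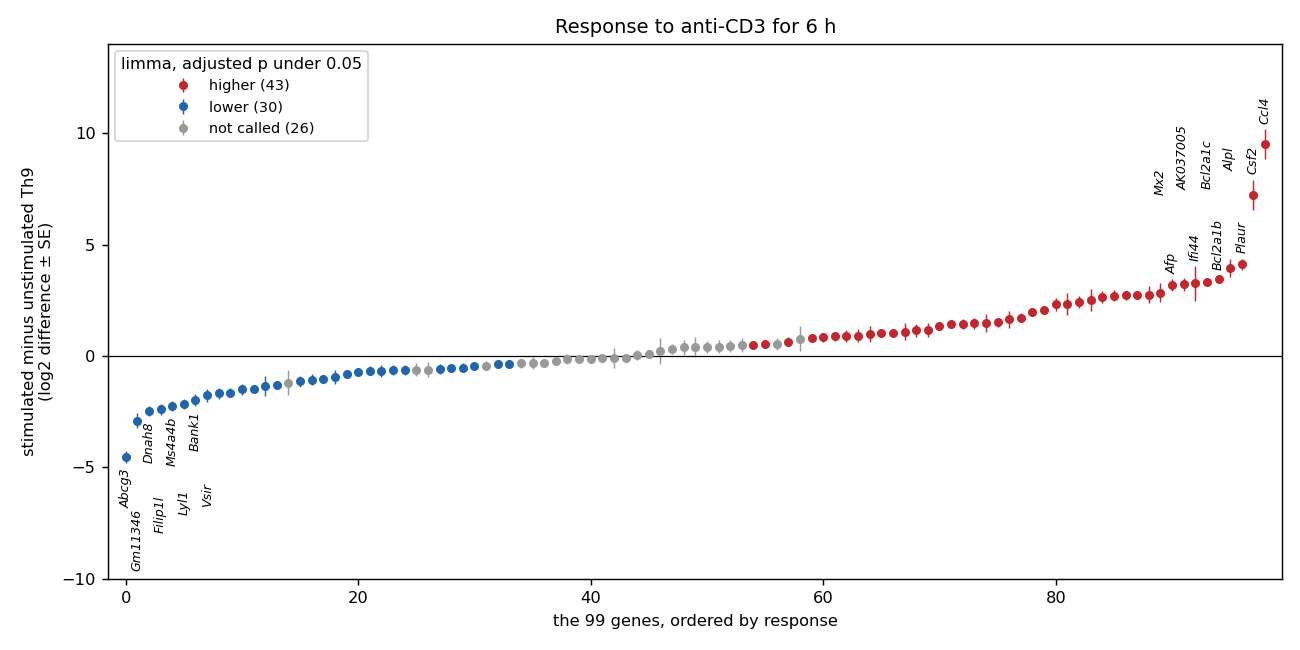
Log2 difference between stimulated and unstimulated Th9 cells with its limma SE (vertical axis) for the 99 genes in order of the difference (horizontal axis), coloured by the call. Ccl4 at 9.51 and Csf2 at 7.23 stand apart at the top, and Abcg3 is at -4.55 (-1.77 with normexp).

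Th2 and Treg cells, in both of which these genes had a signal, did not have the same amount of it. Of the 99, 4 were higher in Th2 than in Treg cells (4.04%; 29.4% of all genes tested), and 51 were lower (51.5%; 33.6% of all genes tested). The median, Th2 minus Treg, was -0.73, beside -0.08 over all genes tested. Of the 51, 20 were more than 4-fold lower in Th2 cells. Among all genes at 6 or above in both cultures, 31.9% were higher and 34.1% lower. The Th2 and Treg arrays took part in the choice of the 99, so these counts are a description. The same holds for the calls and p-values of single genes between Th2 and Treg cells given below, which are no independent test.

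Counts within the functional groups that follow rest on few genes and are to be read beside the shares over all genes tested. Those were 33.2% higher and 30.7% lower after anti-CD3, and 29.4% higher and 33.6% lower in Th2 than in Treg cells. Genes of the interferon response formed the group of 11. Of these, 5 rose after anti-CD3, 1 fell and 5 were not called, while 10 were lower in Th2 than in Treg cells and 1 was not called. Ifi44, an interferon-induced cytoplasmic protein, had levels of 6.55, 6.48 and 6.26 on the stimulated Th9 arrays, 3.08, 3.53 and 2.92 on the unstimulated Th9 arrays, 4.62, 6.87 and 8.65 on the Th2 arrays and 11.39, 11.75 and 12.69 on the Treg arrays. The stimulated arrays were above the unstimulated ones and inside the range of the Th2 arrays, and its probe was well above background on 1 of the 3 unstimulated Th9 arrays. It rose by 3.25 ± 0.77 log2 units (SE; adjusted p = 0.00342), and by 3.08 with slide in the fit (adjusted p = 0.0566; 4.27e-05 to 0.0566 over the settings tried).

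Mx1 and Mx2 encode dynamin-like GTPases that block virus replication. Mx1 had levels of 6.33, 5.68 and 6.21 in stimulated Th9 cells, 3.94, 3.60 and 3.68 in unstimulated Th9 cells, 4.88, 5.99 and 7.19 in Th2 cells and 8.97, 9.44 and 10.17 in Treg cells. Mx2 had 7.28, 7.41 and 7.57 in stimulated Th9 cells, 4.39, 4.54 and 4.78 in unstimulated Th9 cells, 5.87, 7.13 and 7.83 in Th2 cells and 10.61, 11.12 and 11.68 in Treg cells. For both genes the stimulated arrays overlapped the Th2 arrays and stayed below all Treg arrays. Mx1 rose by 2.33 ± 0.49 (adjusted p = 0.00159) and Mx2 by 2.85 ± 0.42 (adjusted p = 0.000127). With normexp background correction, which shrinks differences between dim probes, the differences were 1.24 for Ifi44, 0.94 for Mx1 and 1.56 for Mx2.

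Ifih1, the RNA sensor MDA5, rose by 1.43 ± 0.25 (adjusted p = 0.0004), and Oasl1, a relative of the 2′-5′-oligoadenylate synthetases, by 1.65 ± 0.38 (adjusted p = 0.00298; 1.02 with normexp). Oas3, a member of that synthetase family, differed by 0.49 ± 0.31 and was not called (adjusted p = 0.192). Gbp9, a guanylate-binding protein of the interferon response, fell by 0.52 on the log2 scale (adjusted p = 0.0413). Its difference was -0.37 with slide in the fit (adjusted p = 0.346), and the call was lost without any 1 of stimulated arrays 1 and 2 and unstimulated arrays 1 and 2 (adjusted p 0.0902 to 0.161). Isg20, an exonuclease that degrades single-stranded RNA, had levels of 10.59, 10.46 and 9.60 in stimulated Th9 cells, 9.71, 10.21 and 9.46 in unstimulated Th9 cells, 12.70, 12.89 and 12.62 in Th2 cells and 11.64, 11.99 and 12.55 in Treg cells. Both Th9 groups overlapped and lay below all Th2 and Treg arrays, and the difference of 0.42 ± 0.30 was not called (adjusted p = 0.244). It was 0.73 without stimulated array 3 (adjusted p = 0.0394) and -0.20 with slide in the fit (adjusted p = 0.625), the ends of its range over the settings tried. Isg20 was the one gene of the group not called between Th2 and Treg cells, with 0.68 ± 0.30 (adjusted p = 0.0716).

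Ifi209, of the interferon-inducible p200 family, had levels of 5.98, 5.80 and 4.64 in stimulated Th9 cells, 6.08, 6.03 and 6.15 in unstimulated Th9 cells, 7.16, 7.48 and 7.93 in Th2 cells and 12.62, 12.91 and 13.38 in Treg cells. The log2 difference between Th2 and Treg cells was -5.45 ± 0.33 for Ifi209 (adjusted p = 2.65e-07), -5.23 ± 0.77 for Ifi44 (adjusted p = 0.000152), -4.19 ± 0.42 for Mx2 (adjusted p = 8.35e-06) and -3.51 ± 0.49 for Mx1 (adjusted p = 0.000102). The interferon genes often had their lowest or highest value of a group on the same array. Th2 array 1 held the lowest Th2 value in 10 of the 11, and Treg array 1 the lowest Treg value in 10. The arrays numbered 3 held the highest value of their group in 7 of the 11 in stimulated Th9, 7 in unstimulated Th9, 9 in Th2 and 10 in Treg cells. The 3 Th2 arrays share slide 1 and the 3 unstimulated Th9 arrays share slide 3. Treg array 1 lies on slide 1 and Treg arrays 2 and 3 on slide 2, and stimulated array 3 lies apart from stimulated arrays 1 and 2. How often each array was lowest or highest over all genes was not counted, so this order may not be particular to interferon genes.

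Interferon-stimulated genes as a wider list pointed the same way between Th2 and Treg cells and were divided after anti-CD3. Of the 49 listed, 46 were tested and 6 are among the 99. After anti-CD3, 20 of the 46 were higher and 11 lower, with a median of 0.47. Of all genes tested, 33.2% were higher and 30.7% lower. In Th2 cells none of the 46 was higher than in Treg cells and 44 were lower, beside 29.4% and 33.6% of all genes tested. The mean in unstimulated Th9 cells was below the Th2 and the Treg mean for 27 of the 46. The share of all genes with that order was not counted, so this count does not set the list apart.

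**Figure D3:**
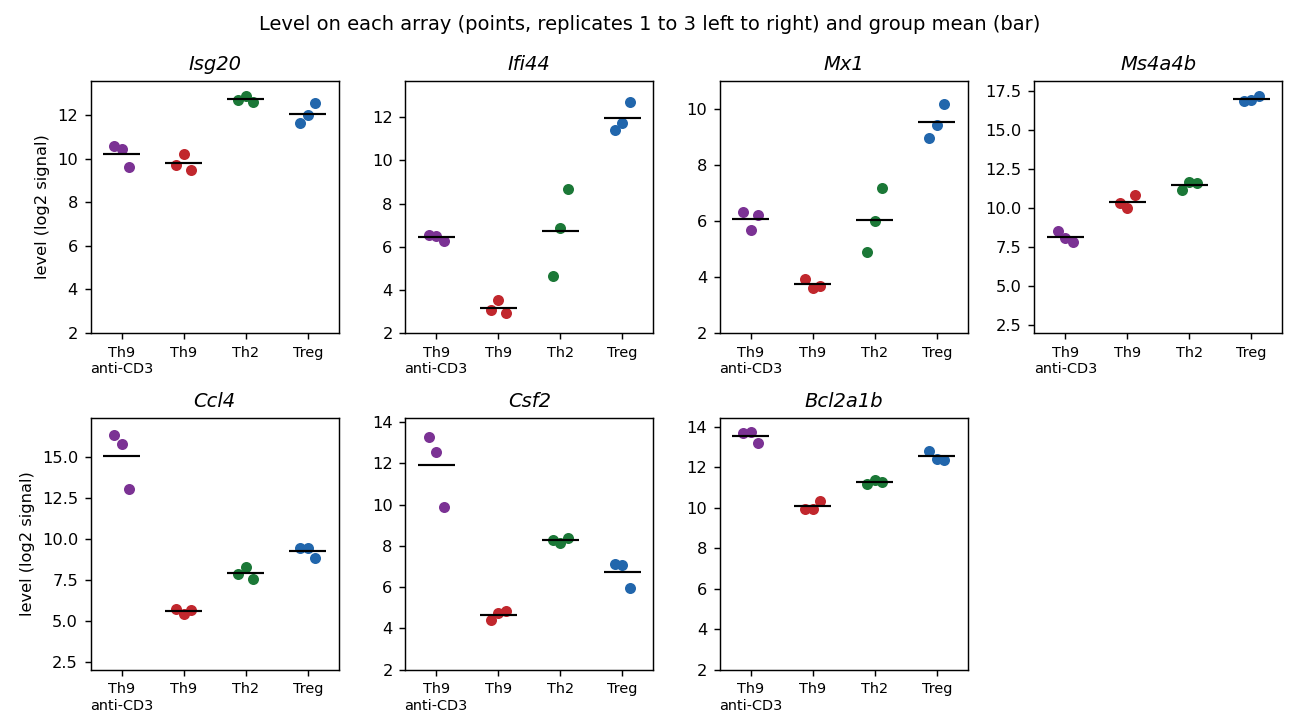
Level on the log2 scale (vertical axis) of 7 genes on the 12 arrays, in the order stimulated Th9, unstimulated Th9, Th2 and Treg, with points for replicates 1 to 3 and a bar for the mean of 3. Ccl4, Csf2 and Bcl2a1b in stimulated Th9 cells lie above all Th2 and Treg arrays, Ifi44 and Mx1 reach the range of the Th2 arrays, and Ms4a4b lies below the unstimulated Th9 arrays.

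Cytokines, chemokines and their receptors formed a group of 7, of which 4 rose, 1 fell and 2 were not called. Ccl4, the chemokine MIP-1β that draws T cells and macrophages, had levels of 16.38, 15.82 and 13.07 in stimulated Th9 cells, 5.70, 5.41 and 5.63 in unstimulated Th9 cells, 7.89, 8.31 and 7.53 in Th2 cells and 9.43, 9.45 and 8.85 in Treg cells. It rose by 9.51 ± 0.66 (adjusted p = 5.86e-07), a 729-fold change, and no stimulated array came near those of the other groups. Stimulated array 3, on slide 3, was the lowest of the 3, and the difference within slide 3 was 7.49.

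Csf2 encodes GM-CSF, a growth factor for myeloid cells that activated helper T cells release. It had levels of 13.26, 12.55 and 9.87 in stimulated Th9 cells, 4.43, 4.75 and 4.82 in unstimulated Th9 cells, 8.27, 8.11 and 8.40 in Th2 cells and 7.14, 7.09 and 5.94 in Treg cells. It rose by 7.23 ± 0.69 (adjusted p = 5.21e-06), and by 5.20 within slide 3. The difference between Th2 and Treg cells, 1.54 ± 0.69, was not called (adjusted p = 0.0741).

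Ccl5, the chemokine RANTES, had levels of 12.06, 12.05 and 11.52 in stimulated Th9 cells, 10.09, 10.21 and 10.16 in unstimulated Th9 cells, 11.79, 12.51 and 12.12 in Th2 cells and 13.53, 13.76 and 13.63 in Treg cells. It rose by 1.73 ± 0.19 (adjusted p = 1.48e-05), and the stimulated arrays overlapped the Th2 arrays. Ccl4 and Ccl5 lie on chromosome 11 with 3 protein-coding genes between them in the RefSeq order. Of the 13 chemokines tested, 11 were higher after anti-CD3 and 1 was lower, beside 33.2% and 30.7% of all genes tested. The 99 genes hold 2 of these chemokines.

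Cxcr3, the receptor for the interferon-induced chemokines, had levels of 10.80, 10.59 and 9.04 in stimulated Th9 cells, 8.87, 8.94 and 9.34 in unstimulated Th9 cells, 10.17, 10.44 and 10.98 in Th2 cells and 14.03, 14.31 and 14.42 in Treg cells. Stimulated array 3 lay within the unstimulated arrays and the other stimulated arrays lay above them. The difference of 1.09 ± 0.40 passed the threshold (adjusted p = 0.0316), but was -0.01 within slide 3 (adjusted p = 0.985 with slide in the fit) and 1.65 without stimulated array 3 (adjusted p = 0.000191). Between Th2 and Treg cells it was lower by -3.73 ± 0.40 (adjusted p = 1.36e-05).

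Gpr34, a receptor for lysophosphatidylserine, had levels of 5.21, 5.19 and 5.89 in stimulated Th9 cells, 5.79, 6.25 and 6.05 in unstimulated Th9 cells, 8.69, 8.75 and 8.98 in Th2 cells and 8.24, 8.27 and 7.58 in Treg cells. It was higher in Th2 than in Treg cells by 0.78 ± 0.23 (adjusted p = 0.0137), but was not called with slide in the fit (0.56; adjusted p = 0.116) or without Treg array 3 (0.55; adjusted p = 0.0519). Its fall of -0.60 ± 0.23 after anti-CD3 (adjusted p = 0.0451) was -0.13 within slide 3 (adjusted p = 0.718 with slide in the fit). Il1rl2, a receptor of the IL-36 cytokines, and Irak2, a kinase of interleukin-1 receptor signalling, were not called, with differences of 0.22 ± 0.56 and -0.08 ± 0.14.

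All 4 Ms4a genes fell after anti-CD3. They encode tetraspanning membrane proteins of the CD20 family, and Ms4a4b is known in mouse T cells as a modulator of activation. Ms4a4b had levels of 8.49, 8.10 and 7.81 in stimulated Th9 cells, 10.28, 10.01 and 10.83 in unstimulated Th9 cells, 11.16, 11.63 and 11.61 in Th2 cells and 16.85, 16.91 and 17.14 in Treg cells. Ms4a4c had 6.50, 6.39 and 6.09 in stimulated Th9 cells, 7.79, 7.86 and 8.29 in unstimulated Th9 cells, 8.90, 9.39 and 9.37 in Th2 cells and 15.03, 15.14 and 15.43 in Treg cells. For both, each group of arrays was separate from the others, in the order Treg, Th2, unstimulated Th9 and stimulated Th9 from high to low.

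Ms4a4b fell by 2.24 on the log2 scale after anti-CD3 (SE 0.23; adjusted p = 9.64e-06) and Ms4a4c by 1.65 (SE 0.19; adjusted p = 1.98e-05). Ms4a6b fell by 1.46 (adjusted p = 3.54e-05) and Ms4a6c by 1.03 (adjusted p = 0.000492; -0.31 with normexp, adjusted p = 0.0435). Between Th2 and Treg cells all 4 were lower, by -5.98 ± 0.19 for Ms4a4c (adjusted p = 4.7e-09), -5.50 ± 0.23 for Ms4a4b (adjusted p = 2.58e-08), -3.37 ± 0.18 for Ms4a6b and -1.66 ± 0.18 for Ms4a6c. The 4 genes lie on chromosome 19, where Ms4a4c, Ms4a4b and Ms4a6c follow each other and 1 protein-coding gene stands between Ms4a6c and Ms4a6b. Their sequences are alike and probes may bind transcripts of more than 1 of them.

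Adhesion, homing and glycosylation genes (6 entries) included 3 that fell, 1 that rose and 2 not called. Of 24 tested genes of naive and resting T cells, 1 rose and 14 fell after anti-CD3, beside 33.2% and 30.7% of all genes tested.

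Itih5, a hyaluronan-binding inter-alpha-trypsin inhibitor chain, had levels of 9.87, 9.55 and 10.53 in stimulated Th9 cells, 11.44, 11.70 and 11.87 in unstimulated Th9 cells, 14.39, 14.35 and 14.16 in Th2 cells and 12.86, 12.82 and 13.53 in Treg cells. It fell by 1.68 after anti-CD3 (SE 0.25; adjusted p = 0.000162), and was one of the 4 genes higher in Th2 than in Treg cells, by 1.23 ± 0.25 (adjusted p = 0.00154). Lfng, a glycosyltransferase that modifies Notch, fell by 0.67 (adjusted p = 0.0121), a call lost with slide in the fit (-0.67; adjusted p = 0.0872) and without unstimulated array 1 (-0.52; adjusted p = 0.0522). Ninj2, an adhesion protein, rose by 1.43 ± 0.18 (adjusted p = 4.76e-05; 0.79 with normexp). The sialyltransferase gene St3gal6 and the entry ENSMUST00000023427, which has no current symbol, were not called, at 0.45 ± 0.28 and 0.41 ± 0.26.

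Surface receptors, adaptors and signalling genes (7 entries) divided by gene. Plaur, the urokinase receptor, had levels of 9.78, 9.39 and 9.14 in stimulated Th9 cells, 5.27, 5.15 and 5.57 in unstimulated Th9 cells, 6.25, 6.63 and 6.18 in Th2 cells and 8.91, 9.09 and 9.95 in Treg cells. It rose by 4.11 ± 0.27 (adjusted p = 3.71e-07), above all Th2 arrays and into the range of the Treg arrays. Btla, an inhibitory receptor that binds HVEM, rose by 2.74 ± 0.15 (adjusted p = 1.46e-07), and Ppp3ca, the catalytic subunit of the phosphatase calcineurin, by 1.04 ± 0.11 (adjusted p = 9.2e-06).

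Vsir, which encodes the inhibitory receptor VISTA, went the other way. It had levels of 9.40, 8.84 and 8.29 in stimulated Th9 cells, 10.73, 10.52 and 10.58 in unstimulated Th9 cells, 12.58, 12.22 and 11.89 in Th2 cells and 12.14, 12.19 and 13 in Treg cells, and fell by 1.77 (SE 0.30; adjusted p = 0.000378). Tyrobp, the adaptor DAP12 of myeloid and NK cells, had levels of 3.46, 4.33 and 3.35 in stimulated Th9 cells, 5.00, 4.83 and 4.15 in unstimulated Th9 cells, 5.83, 6.45 and 5.78 in Th2 cells and 6.31, 5.95 and 5.96 in Treg cells. It fell by 0.95 (SE 0.30; adjusted p = 0.0172), with -0.48 in the deposited table (adjusted p = 0.108) and -0.10 with normexp (adjusted p = 0.523). The call was also lost without any 1 of 4 arrays, stimulated 1 or 3 and unstimulated 1 or 2, at -0.86 to -0.77 (adjusted p 0.0563 to 0.0681).

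Tyrobp belongs to a list of 15 myeloid and dendritic cell markers, of which 12 were tested. Their summed signal was 1940 to 2640 on the stimulated Th9 arrays, 1770 to 2200 on the unstimulated Th9 arrays, 1810 to 2340 on the Th2 arrays and 7390 to 8510 on the Treg arrays. Of the 12 tested, 3 rose and 4 fell after anti-CD3, beside 33.2% and 30.7% of all genes tested. In Th2 cells 3 were higher than in Treg cells and 6 were lower, beside 29.4% and 33.6% of all genes tested, so the list was divided. Among the 15, S100a8 and S100a9 were not well above background on any array, and Lyz2 and Itgam were so on Treg arrays alone. The part of such cells in the values of Tyrobp was not tested. Tespa1, a protein of thymocyte receptor signalling, has 2 entries on the array. One was higher after anti-CD3 by 0.51 ± 0.14 (adjusted p = 0.00917; 0.144 with slide in the fit) and higher in Th2 than in Treg cells by 1.03 ± 0.14 (adjusted p = 9.55e-05). The other was called in neither comparison, with 0.05 ± 0.22 and -0.03 ± 0.22, so the probes of this gene disagree.

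Survival genes and protease inhibitors (5) included 3 that rose, 1 that fell and 1 not called. Bcl2a1b and Bcl2a1c belong to the A1 family of anti-apoptotic Bcl-2 relatives, a target of NF-κB. Bcl2a1b had levels of 13.68, 13.76 and 13.18 in stimulated Th9 cells, 9.96, 9.96 and 10.36 in unstimulated Th9 cells, 11.17, 11.37 and 11.27 in Th2 cells and 12.82, 12.43 and 12.37 in Treg cells. Bcl2a1c had 9.43, 9.66 and 8.91 in stimulated Th9 cells, 5.84, 5.89 and 6.31 in unstimulated Th9 cells, 7.02, 7.02 and 7.10 in Th2 cells and 8.63, 8.53 and 8.36 in Treg cells.

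In stimulated Th9 cells both genes lay above every array of the other groups. Bcl2a1b rose by 3.44 ± 0.18 (adjusted p = 1.31e-07) and Bcl2a1c by 3.32 ± 0.19 (adjusted p = 1.86e-07). The A1 genes are nearly identical, so their 2 probes may report 1 transcript pool. Serpinb9, the inhibitor of granzyme B, rose by 2.51 ± 0.50 (adjusted p = 0.00118) and by 0.93 within slide 3 (adjusted p = 0.00389 with slide in the fit). Serpinb6a, an inhibitor of cathepsin G, fell by 0.36 (adjusted p = 0.0301), with -0.25 when slide was in the fit (adjusted p = 0.292). Its call was also lost without stimulated array 1 or 2 or any 1 unstimulated array (adjusted p 0.0614 to 0.0869). Serpinb6d was not called at -0.43 ± 0.20. Serpinb9, Serpinb6d and Serpinb6a lie in this order on chromosome 13, and Serpinb6a is next to Nqo2.

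Metabolic enzymes and transporters (9) included 5 that rose, 2 that fell and 2 not called. Alpl, tissue-nonspecific alkaline phosphatase, had levels of 9.04, 9.26 and 7.66 in stimulated Th9 cells, 4.27, 5.15 and 4.69 in unstimulated Th9 cells, 6.45, 6.64 and 7.18 in Th2 cells and 7.15, 6.66 and 6.43 in Treg cells. It rose by 3.95 ± 0.40 (adjusted p = 7.81e-06; 2.54 with normexp), above all Th2 and Treg arrays. Nqo2, a quinone reductase, had levels of 7.43, 7.64 and 8.58 in stimulated Th9 cells, 6.64, 6.61 and 6.93 in unstimulated Th9 cells, 9.38, 9.42 and 9.46 in Th2 cells and 9.47, 9.46 and 10.53 in Treg cells. It rose by 1.16 ± 0.33 (adjusted p = 0.00911; 1.86 within slide 3) and stayed below all Th2 and Treg arrays.

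Abcg3, a transporter of the ABCG family, had levels of 2.77, 2.15 and 3.45 in stimulated Th9 cells, 7.51, 7.04 and 7.46 in unstimulated Th9 cells, 8.54, 8.51 and 8.55 in Th2 cells and 8.35, 8.39 and 8.65 in Treg cells. It fell, with a difference of -4.55 ± 0.26 (adjusted p = 2.18e-07; -1.77 with normexp), with 1 of the 3 stimulated arrays well above background. Th2 and Treg arrays overlapped, and their difference was 0.07 ± 0.26 (adjusted p = 0.835). Slc9b2, a sodium/proton exchanger, rose by 2.75 ± 0.37 (adjusted p = 6.59e-05). Enpp5, a pyrophosphatase relative, fell by 1.503 (adjusted p = 0.000506), with -0.26 under normexp (adjusted p = 0.147), and 2 of the 3 stimulated arrays had it well above background.

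Anxa1 and S100a10 encode calcium-dependent membrane-binding proteins, and annexin A1 is known for anti-inflammatory activity. Anxa1 had levels of 6.57, 6.01 and 6.26 in stimulated Th9 cells, 4.97, 4.68 and 4.80 in unstimulated Th9 cells, 8.16, 7.93 and 7.58 in Th2 cells and 7.33, 6.98 and 8.03 in Treg cells. The stimulated arrays lay between the unstimulated Th9 arrays and those of the other cultures. Anxa1 rose by 1.46 ± 0.26 (adjusted p = 0.000457; 0.74 with normexp) and S100a10 by 0.82 ± 0.18 (adjusted p = 0.00204; 0.52 with quantile normalization), and neither was called between Th2 and Treg cells.

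Both transcription regulators were called, in opposite directions. Id3, an inhibitor of E proteins, had levels of 8.66, 8.09 and 8.79 in stimulated Th9 cells, 6.51, 6.49 and 6.62 in unstimulated Th9 cells, 7.96, 8.25 and 7.67 in Th2 cells and 12.07, 12.02 and 11.94 in Treg cells. It rose by 1.97 ± 0.19 (adjusted p = 4.78e-06) and was lower in Th2 than in Treg cells by -4.05 ± 0.19 (adjusted p = 4.43e-08). Lyl1, a basic helix-loop-helix factor of blood cell progenitors, had levels of 8.46, 8.93 and 9.31 in stimulated Th9 cells, 10.76, 11.20 and 11.20 in unstimulated Th9 cells, 12.30, 12.42 and 12.37 in Th2 cells and 12.52, 12.52 and 12.11 in Treg cells. It fell by 2.16 (SE 0.21; adjusted p = 6.02e-06).

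Vesicle traffic and cytoskeleton genes (8) included 4 that rose, 3 that fell and 1 not called, and 5 were lower in Th2 than in Treg cells. Arc, an immediate early gene of neurons, rose by 2.31 ± 0.27 (adjusted p = 2.54e-05), and Chml, a Rab escort protein, by 2.08 ± 0.10 (adjusted p = 1.03e-07). Dnah8, an axonemal dynein heavy chain, had levels of 6.48, 6.35 and 6.96 in stimulated Th9 cells, 8.82, 8.78 and 9.58 in unstimulated Th9 cells, 9.99, 9.88 and 10.37 in Th2 cells and 11.30, 11.51 and 11.31 in Treg cells. It fell by 2.46 (SE 0.23; adjusted p = 4.71e-06). Ehd3, a regulator of endosome recycling, fell by 1.30 (adjusted p = 9.05e-06; -0.85 with normexp) and was lower in Th2 than in Treg cells by -3.06 ± 0.13 (adjusted p = 3.13e-08).

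**Figure D4:**
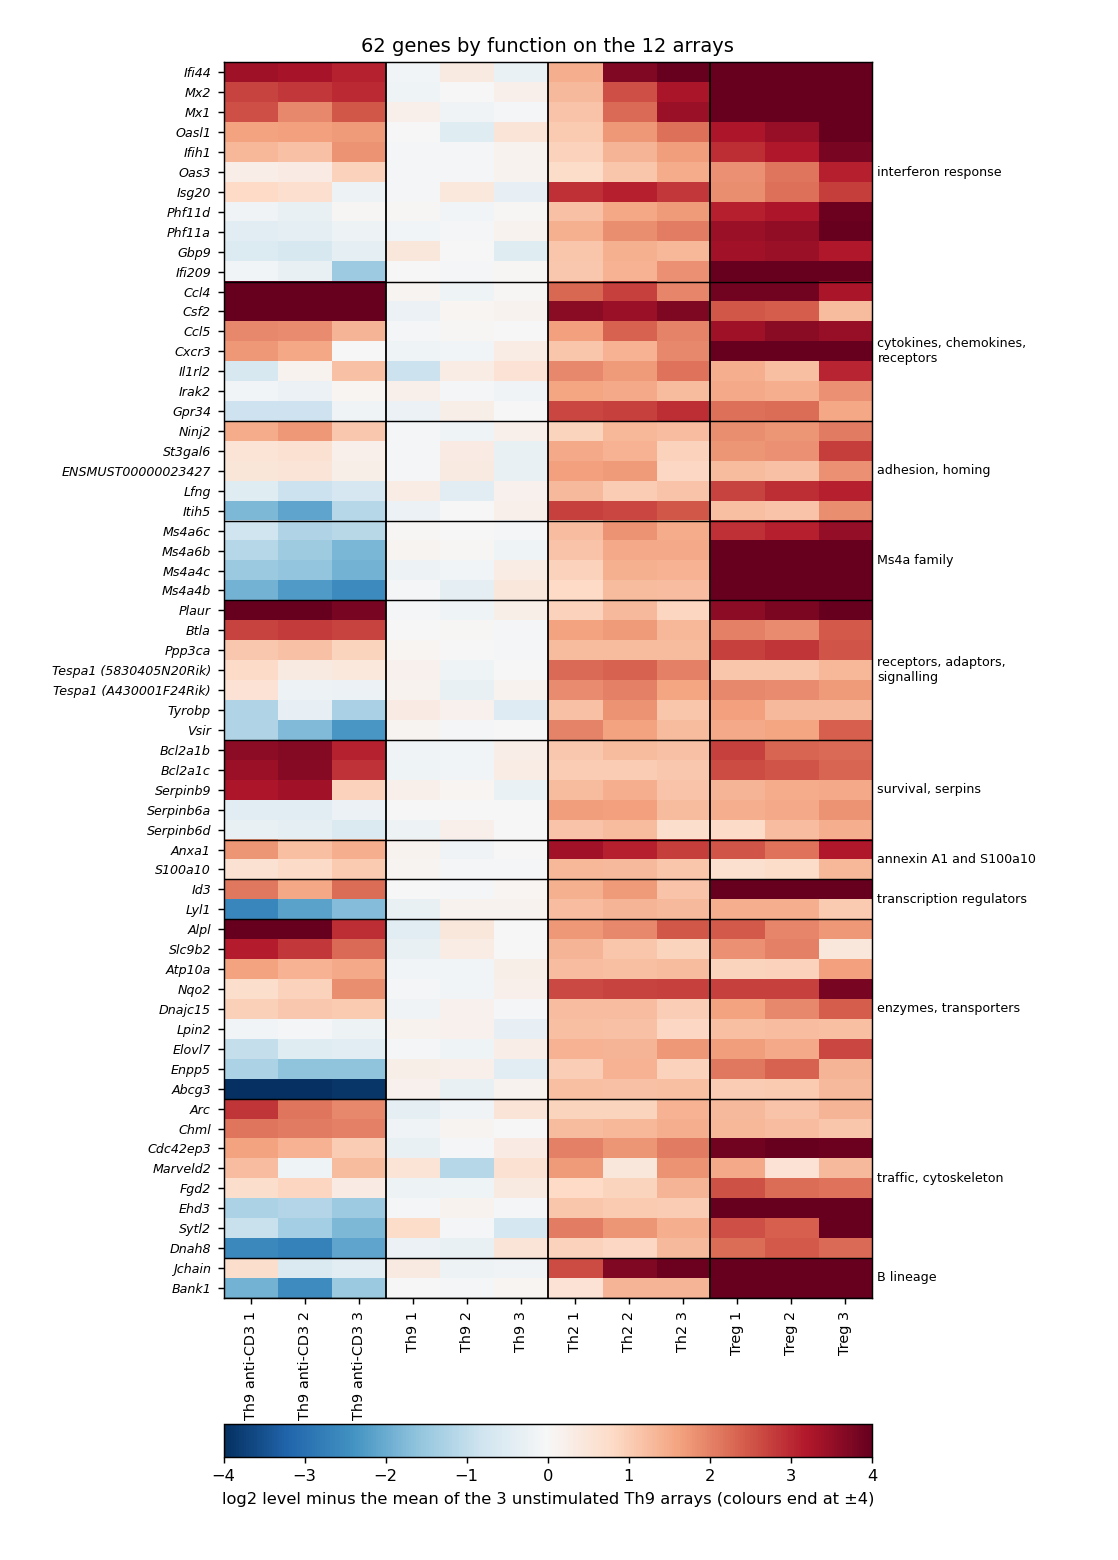
Log2 level of 62 genes (rows, by functional group and then by response) on the 12 arrays (columns) minus the mean of the 3 unstimulated Th9 arrays, with red for higher and blue for lower and colours ending at 4. Apart from Isg20, which is higher on the Th2 arrays, the interferon genes are darkest on the Treg arrays. So are the Ms4a genes, whose rows are blue on all 3 stimulated Th9 arrays.

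The list held 2 lineage genes of B cells, Jchain, the joining chain of secreted antibodies, and Bank1, a scaffold of B cell receptor signalling. Jchain had levels of 4.30, 3.02 and 3.18 in stimulated Th9 cells, 3.94, 3.39 and 3.45 in unstimulated Th9 cells, 6.21, 7.30 and 7.50 in Th2 cells and 10.21, 9.13 and 8.87 in Treg cells. Both Th9 groups overlapped near background, and the difference of -0.09 ± 0.45 was not called (adjusted p = 0.877). Bank1 had levels of 3.49, 2.86 and 3.91 in stimulated Th9 cells, 5.37, 5.32 and 5.47 in unstimulated Th9 cells, 5.97, 6.76 and 6.76 in Th2 cells and 10.34, 10.27 and 9.75 in Treg cells. It fell by 1.97 (SE 0.28; adjusted p = 0.000113), with -0.37 under normexp (adjusted p = 0.0544), and 1 of the 3 stimulated arrays was well above background. Between Th2 and Treg cells Jchain was lower by -2.40 ± 0.45 and Bank1 by -3.62 ± 0.28 (adjusted p = 0.00086 and 1.48e-06).

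A list of B cell markers, of which 14 were tested and Bank1 is one, was measured on the same arrays. Its summed signal was 2880 to 9700 on the stimulated Th9 arrays, 21100 to 25100 on the unstimulated Th9 arrays, 14500 to 17400 on the Th2 arrays and 205000 to 233000 on the Treg arrays. After anti-CD3 none of the 14 rose and 10 fell, beside 33.2% and 30.7% of all genes tested. All 14 were lower in Th2 than in Treg cells, beside 33.6% of all genes tested. The sum was higher in unstimulated Th9 than in Th2 cells, the opposite of Jchain and Bank1. The part of B cells in the Treg values was not tested.

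Of the 36 genes in no functional group, 14 rose, 11 fell and 11 were not called, and 22 of the 99 had no current symbol. AK037005, a cDNA without a symbol, had levels of 8.99, 8.36 and 8.39 in stimulated Th9 cells, 5.63, 5.30 and 5.17 in unstimulated Th9 cells, 6.58, 6.29 and 6.62 in Th2 cells and 6.96, 6.55 and 5.83 in Treg cells. It rose by 3.21 ± 0.27 (adjusted p = 2.19e-06). Afp, alpha-fetoprotein of the fetal liver, rose by 3.19 ± 0.26 (adjusted p = 1.77e-06), and Prag1, a pseudokinase, by 2.65 ± 0.28 (adjusted p = 1.19e-05; 1.57 with normexp).

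Filip1l, a regulator of cell movement, had levels of 7.19, 7.61 and 6.42 in stimulated Th9 cells, 9.70, 9.29 and 9.37 in unstimulated Th9 cells, 11.89, 11.83 and 11.84 in Th2 cells and 10.46, 10.42 and 10.78 in Treg cells. It fell by 2.39 (SE 0.25; adjusted p = 1.04e-05) and was higher in Th2 than in Treg cells by 1.30 ± 0.25 (adjusted p = 0.000969). Gm11346, a predicted gene, had levels of 3.03, 1.81 and 2.88 in stimulated Th9 cells, 5.80, 5.28 and 5.34 in unstimulated Th9 cells, 7.36, 7.28 and 6.90 in Th2 cells and 10.29, 10.39 and 11.11 in Treg cells. No stimulated array had it well above background. In the main processing it was at least 4.56-fold lower on these arrays than in unstimulated Th9 cells (adjusted p = 1.63e-05). This bound does not hold with normexp, where the difference was -0.48 log2 units (adjusted p = 0.0293). For this bound, each stimulated array was given the dimmest signal that still counted as well above background there, or the probe's own value where that was higher.

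**Figure D5:**
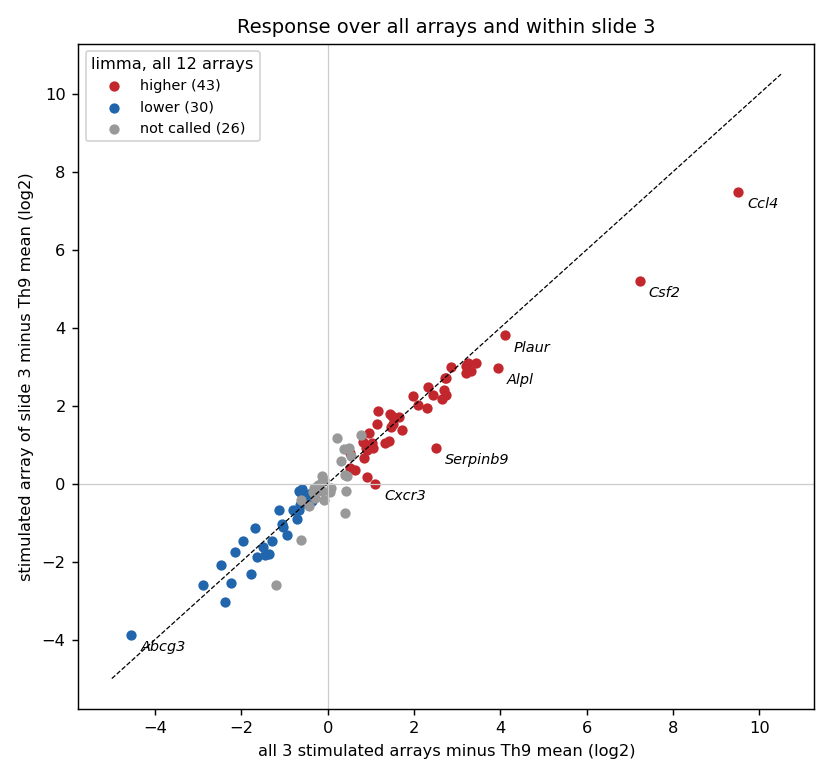
Response to anti-CD3 over all arrays (horizontal axis, log2) and within slide 3 (vertical axis, stimulated array 3 minus the mean of the unstimulated Th9 arrays, log2) for the 99 genes, coloured by the call, with a dashed line of equal values. Most points lie near the line, while Ccl4, Csf2, Serpinb9 and Cxcr3 lie below it.

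Stimulated array 3 differed from stimulated arrays 1 and 2 in some of these genes. The median difference over the 99 was -0.07, beside 0.00 (-0.00241) over all genes tested, but 9 of the 99 were more than 1 lower on array 3 and 2 were more than 1 higher, against 467 and 467 of 17928. The differences between arrays of the stimulated group and the slides they lie on cannot be told apart.

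In the RefSeq order, 19 of the 70 protein-coding genes on the list lay within 10 protein-coding genes of another, in 12 pairs. How many such pairs other lists of 70 genes hold was not counted, so this does not set the list apart. Apart from the Ms4a, serpin and chemokine genes, Bank1 was next to Ppp3ca on chromosome 3, with Slc9b2 near them. Abcg3 and Gbp9 lay 1 protein-coding gene apart on chromosome 5, and so did Phf11a and Phf11d on chromosome 14. Filip1l and St3gal6 lay on chromosome 16 with 2 protein-coding genes between them.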

How the data were processed

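RNA was measured on 12 one-colour Agilent 4x44K arrays. The scanner output holds spot intensity on a linear scale, which the authors obtained in Agilent Feature Extraction (version 10.5.1.1 per the file headers). Background had been subtracted there, but arrays had not been made comparable with each other. The deposited table of the series holds log2 values. Set against the scanner values of the same array, each column correlated at 0.99958 or more, and the column medians (5.171 to 5.174) are those of values made alike between arrays; the tool behind it is not given in the sources used here. It served to choose the genes, and some genes are not reported here.

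For levels and tests, the processed signal was taken on the log2 scale, each array's 75th percentile was subtracted and 9.217, the mean of those percentiles, was added back. Controls and the 60 to 94 spots per array that the scanner software flagged as outliers were removed. The precision is limited by the number of arrays. Genes well above background on at least 3 arrays were tested (17928, with all 99). All 12 arrays were fitted with limma 3.58.1 (lmFit and eBayes) in R 4.3.3 with 1 mean per group, and the Benjamini-Hochberg adjustment ran over all genes tested. The random slide block used statmod 1.5.0, and tables were read with jsonlite 2.0.0 and data.table (version 1.17.8). The fit was tested on simulated data.

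The genes, the gene lists and the tests were chosen with earlier results of these data known. Levels on each array are given for the 8 genes with the largest smaller difference to Th2 and Treg cells, the 8 largest increases and decreases after anti-CD3, the 4 largest differences each way between Th2 and Treg cells, and up to 4 genes of each list, apart from those not reported. Alternatives were the deposited table, normexp background correction (offset 50), quantile normalization, other filters, slide and replicate as blocks, fewer arrays, and other thresholds of the rule. Names came from RefSeq accessions for 61 genes, current symbols for 10 and synonyms for 6.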

Additional observations from a re-analysis of the deposited data

How the results depend on the processing

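The counts of called genes kept within 1.5 times their value under the other settings tried, with 1 exception. Genes higher in Th2 than in Treg cells numbered 4, and 9 without Treg replicate 3 (4 to 9 over the arrays left out in turn). Without 1 array, genes higher after anti-CD3 numbered 39 to 43, genes lower 21 to 27, and genes lower in Th2 than in Treg cells 47 to 52. With slide as a fixed block, which rests the response on stimulated array 3, 54 of the 73 calls remained, 35 genes were higher and 21 lower, and the median difference was 0.19 against 0.39. With a replicate block, 45 were higher and 30 lower, 69 of the 73 calls remained, and Th2 against Treg gave 4 and 51. The deviations of same-numbered stimulated and unstimulated Th9 arrays correlated at 0.209, 0.108 and 0.0958, and those of Th2 and Treg arrays at 0.0271, 0.0197 and -0.00938. Differently numbered stimulated and unstimulated Th9 arrays correlated at -0.178 to 0.0575. The main fit did not pair the samples, as the labels do not state a pairing. Between same-numbered unstimulated Th9 and Th2 arrays, a comparison not tested here, the correlations were 0.199, 0.184 and 0.41, and between unstimulated Th9 and Treg arrays 0.0478, 0.139 and 0.115. Each stimulated array correlated best with the unstimulated array of its own number, a hint from the data and not from the design. The list held 99 genes, 30 with a difference of at least 1.5, 243 with slide as a fixed block (63 shared), and 94 to 119 without 1 array.

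Of 33 entries followed for the response to anti-CD3, 24 kept their call and direction under all alternatives run for them, and 21 of 22 did between Th2 and Treg cells. The signs that turned were those of Cxcr3 (-0.0084) and Isg20 (-0.20) with slide as a fixed block, and of Jchain, at 0.11 with the deposited table, 0.10 with normexp, and -0.49 to 0.15 when an array was left out; Isg20 and Jchain were not called to begin with. Cxcr3 also lost its call with no filter, the replicate block, only the 6 arrays compared, and without 1 of 4 arrays in turn (stimulated 1 or 2, unstimulated 1 or 2). Gpr34 kept its fall after anti-CD3 under few settings (adjusted p 0.00768 to 0.718). The causes were not tested. Depth is not defined for arrays. Signal near background limits Ifi44, Mx1, Jchain, Bank1, Tyrobp, Enpp5, Gm11346 and Abcg3, among others. The response to anti-CD3 also shrank with normexp for Mx2 (1.56), Anxa1 (0.74), Ms4a6c (-0.31) and Plaur (3.00).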

Other observations

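Marveld2, a tight junction protein gene, differed by array number more than by culture. Its levels on the arrays numbered 1, 2 and 3 were 7.03, 5.61 and 7.04 in stimulated Th9 cells, 6.31, 4.65 and 6.38 in unstimulated Th9 cells, 7.50, 6.24 and 7.57 in Th2 cells and 7.31, 6.37 and 7.08 in Treg cells. The array numbered 2 was the lowest of each group, on slide 2 in the stimulated and Treg groups, slide 3 in the unstimulated Th9 group and slide 1 in the Th2 group.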
